A study of Mus musculus with 58 samples.

Results

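Wnt ligands, their receptors and co-receptors, R-spondins, secreted antagonists and the feedback target Axin2 were examined across adipose stem cells (ASC) of inguinal white adipose tissue (iWAT). Members were all genes of the count table whose symbol is that of a Wnt ligand (Wnt), a Frizzled receptor (Fzd), a secreted frizzled-related protein (Sfrp1 to Sfrp5), a Dickkopf (Dkk1 to Dkk4) or an R-spondin (Rspo1 to Rspo4), or is Lrp5, Lrp6, Wif1 or Axin2. This rule gave 45 of 56953 genes, of which 44 had at least 1 read and 24 were among the 12464 genes with enough reads to be tested. By role they were 19 ligands (7 tested), 10 Frizzled receptors (7 tested), 2 LRP co-receptors (2 tested), 4 R-spondins (2 tested), 9 antagonists (5 tested) and Axin2. Sfrp3 stands under the symbol Frzb, which the rule does not match, so it is given with the other genes of the pathway.

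Wnt ligands are secreted lipid-modified proteins that bind a Frizzled receptor together with LRP5 or LRP6, which stabilises β-catenin and turns on target genes such as Axin2, while other ligands act through Frizzled without β-catenin. Secreted frizzled-related proteins and WIF1 bind the ligands, classical Dickkopf proteins block the co-receptors, and R-spondins keep the receptors at the surface. In adipose tissue, β-catenin signalling is known to hold preadipocytes back from differentiation, and WNT10B is its best-studied ligand there.

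The study asked how sex hormones bear on ASC. Male C57BL6/J mice were castrated and female mice ovariectomized at 4 weeks of age, and these and age-matched male and female controls were terminated at 10 weeks after a 4-h fast, with 8 mice per group according to the methods. CD45-/CD31-/CD34+ cells were sorted by FACS into DPP4- cells (ASC1) and DPP4+ cells (ASC2), and bulk Smart-seq3 libraries were made from their RNA. The 58 libraries comprised 7 of control male ASC1, 3 of ovariectomized female ASC1 and 8 of each of the 6 other groups (control female ASC1, castrated male ASC1 and all 4 ASC2 groups). The groups shared strain, depot and age, and libraries with under 8500 detected genes had been removed by the authors. Levels are given as CPM, the reads of a gene per 1e6 reads of its library on TMM-scaled library sizes.

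Libraries held 106566 to 1421547 reads, and several did not match their labels. In 28 of 58 libraries the reads of Xist and of 4 Y-linked genes did not match the labelled sex, including 8 of 8 of castrated male ASC1, 4 of 7 of control male ASC1, 4 of 8 of control male ASC2, 6 of 8 in each control female group and 0 of the ovariectomized libraries. The 8 castrated ASC1 libraries held 13 to 97 Xist reads and 0 to 4 Y-linked reads, the female pattern. Some of the 28 held both, such as control male ASC2 library E with 71 and 32. Control female ASC1 library A held 2 and 1, too few to decide. The paper put low Ddx3y and Eif2s3y counts in control females down to weak male contamination. It trusted these samples because their Sult1e1 and C7 counts were low. In 22 libraries there were 5 or more reads of Tcf21, a transcription factor of visceral fat stroma. These were 14 ASC1 libraries (3 control male, 5 control female, 6 castrated) and 8 ASC2 libraries (2 control female, 2 castrated, 4 ovariectomized). In these 22, the summed level of 4 mesothelial markers was 13.9 to 153 CPM, against 0 to 19.7 CPM in the other 36. Among controls that matched their sex label, the 3 male ASC1 and 2 female ASC2 libraries all reached 5 Tcf21 reads. None of the 4 matched male ASC2 or 2 matched female ASC1 libraries did. Sex and Tcf21 reads can therefore not be told apart in sex-matched comparisons of control males with females. Nor can population and Tcf21 reads within either sex, since Tcf21 libraries were ASC1 in matched males and ASC2 in matched females. The sex-matched value of ASC2 against ASC1 in controls is an average over these opposite cases. The keratin gene Krt14 reached 15 CPM in 14 libraries, namely 4 of control male ASC1, 6 of control female ASC1 and 4 of ovariectomized ASC2. In control male ASC1 and ovariectomized ASC2 these were exactly the libraries under 5 Tcf21 reads. Leaving out Krt14 libraries therefore leaves only Tcf21 libraries in these groups, and leaving out Tcf21 libraries leaves only Krt14 libraries. The 3 libraries of ovariectomized ASC1 stood apart, with a summed level of 4 fibroblast markers (Pdgfra, Col1a1, Dcn, Lum) of 43140 to 45110 CPM against 3024 to 13980 CPM in all others, and with all 6 epithelial markers at 0. They also held most of the ASC1 markers Col15a1, G0s2 and Cxcl14, which summed to 629.7 to 1111 CPM against 11.61 to 570.2 CPM in all others. In the ASC2 markers Dpp4, Cd55, Arl4d and Pi16 the sort was visible in every group, with a summed level of 508.7 to 5933 CPM in ASC2 and 16.6 to 417.6 CPM in ASC1. The 3 ASC1 markers were higher in ASC1 without overlap except in castrated mice. There ASC1 held 151.7 to 348.6 CPM, inside the 11.61 to 458.7 CPM of ASC2. Cd34, part of the sort, was at 23.96 to 345.6 CPM in ASC1 other than ovariectomized. It was at 1372 to 1782 CPM in ovariectomized ASC1 and 126.8 to 1902 CPM in ASC2. Results that rest on the libraries against their labels are given with and without them where a fit without them could be made.

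To show the gene starts of the ligands that lead the ASC2 pattern, the 250 bases before the transcription start are printed for Wnt2 (chr6:18030446-18030695, minus strand), Wnt10b (chr15:98778151-98778400, minus strand) and Wnt11 (chr7:98834862-98835111, plus strand), from RefSeq on GRCm38.p6, each 5′ to 3′ in the direction of the gene. Capitals mark letters that match a searched motif on either strand, namely CTTTGAT or CTTTGAA (TCF/LEF core), TGTTCT (androgen receptor half-site) or GGTCA (estrogen receptor half-site).
Wnt2: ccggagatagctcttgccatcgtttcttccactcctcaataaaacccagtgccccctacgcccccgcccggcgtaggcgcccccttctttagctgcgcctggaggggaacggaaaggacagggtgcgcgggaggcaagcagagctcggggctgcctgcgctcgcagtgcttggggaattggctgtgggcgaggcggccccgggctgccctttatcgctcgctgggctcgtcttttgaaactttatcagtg
Wnt10b: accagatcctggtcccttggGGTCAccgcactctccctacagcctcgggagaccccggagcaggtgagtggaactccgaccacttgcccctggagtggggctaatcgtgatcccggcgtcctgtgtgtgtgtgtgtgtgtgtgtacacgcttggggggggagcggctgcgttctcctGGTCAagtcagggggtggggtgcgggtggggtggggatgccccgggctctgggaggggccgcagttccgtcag
Wnt11: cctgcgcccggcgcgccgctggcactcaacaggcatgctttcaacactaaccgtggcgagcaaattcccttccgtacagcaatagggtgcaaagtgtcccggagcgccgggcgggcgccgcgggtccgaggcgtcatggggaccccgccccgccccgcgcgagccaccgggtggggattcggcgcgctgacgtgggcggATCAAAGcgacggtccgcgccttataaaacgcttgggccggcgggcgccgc
The Wnt10b window held GGTCA at 230 to 226 and at 73 to 69 bases before the start. The Wnt11 window held CTTTGAT on the opposite strand at 51 to 45 bases before the start, which reads ATCAAAG here, and a second Wnt11 start in the table had none. The Wnt2 window held none of the 4 motifs. Promoters were found for 29 of the 45 members. Of all 32851 promoters of the table, 3.21% held CTTTGAT, 4.46% CTTTGAA, 16.1% TGTTCT and 35.2% GGTCA, and of the 32 member promoters 2, 1, 4 and 14 did. These matches are letters in a window and say nothing of binding.

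Levels were compared between members per kilobase of exon, as the mean of the group means. For ASC1 the 3 ovariectomized libraries were left out of this mean, since they set the level of several members. In ASC1 of the 3 other groups the antagonists Sfrp1 (27.0 CPM per kb), Dkk3 (20.6 CPM per kb) and Sfrp2 (11.9 CPM per kb) stood highest, followed by the receptors Fzd1 (11.7 CPM per kb) and Fzd2 (7.76 CPM per kb). Sfrp4 followed at 6.57 CPM per kb and Wnt2, the highest ligand, at 6.51 CPM per kb, while Fzd4 was at 3.17 CPM per kb. With the ovariectomized libraries counted as a further group, Sfrp4 would stand first in ASC1 at 28.4 CPM per kb and Fzd4 at 9.60 CPM per kb. In ASC2 the order was another one, with Sfrp4 at 45.0 CPM per kb, Wnt2 at 32.9 CPM per kb, Sfrp2 at 29.0 CPM per kb, Dkk3 at 19.7 CPM per kb and Fzd1 at 7.50 CPM per kb. Sfrp1 stood at 5.63 CPM per kb there.

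**Figure D1:**
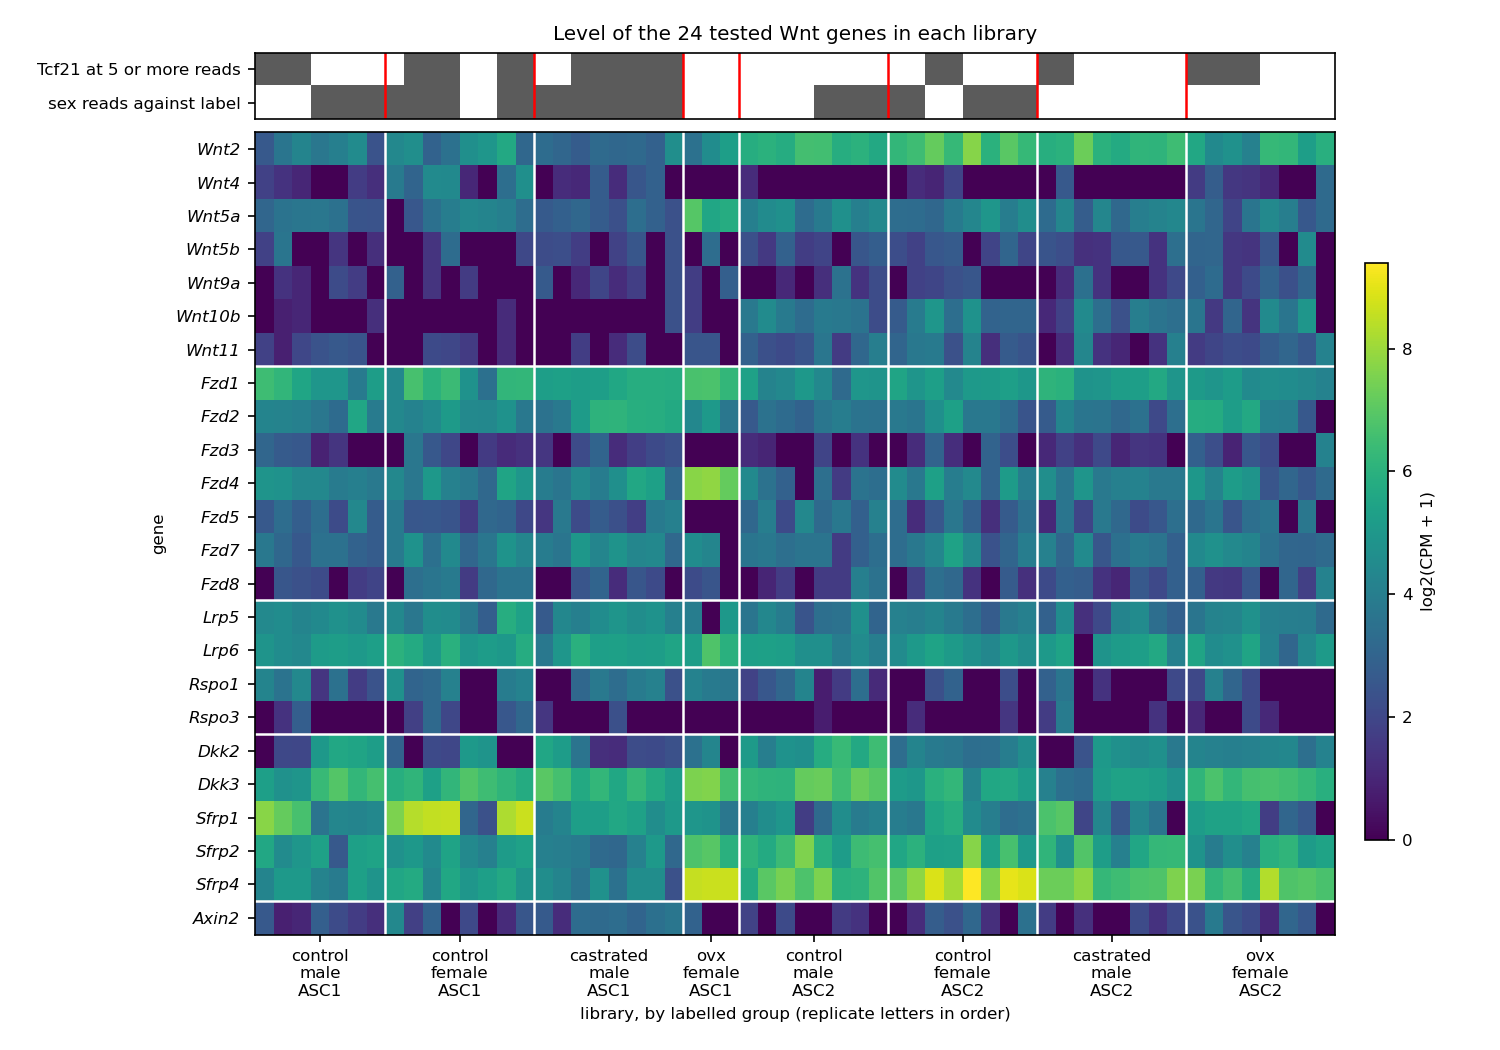
Level of the 24 tested members (rows, by role) in the 58 libraries (columns, by labelled group) as log2(CPM + 1), with strips above for 5 or more Tcf21 reads and for sex-chromosome reads against the label. Wnt2, Wnt10b and Sfrp4 are brighter in ASC2 than in ASC1 of the control and castrated groups, and Wnt5a and Fzd4 are brightest in the 3 ovariectomized ASC1 libraries.

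The 21 members that were not tested had 0 to 69 reads over all 58 libraries. They were Wnt16 (69 reads), Fzd10 (50), Wnt2b (46), Fzd6 (40), Rspo2 (36), Wnt7b (20), Wnt7a (15), Sfrp5 (14), Dkk1 (10), Fzd9 (6), Wnt1 and Rspo4 (4 each), Wnt3, Wnt3a, Wnt6, Wnt8b and Wnt9b (3 each), Wnt10a and Wif1 (2 each), Dkk4 (1) and Wnt8a (0). For a group, the limit of detection is 3 reads over its libraries, or 0.4506 to 1.924 CPM of unscaled reads. Fzd10, a Frizzled receptor, was above this limit in control female ASC2, where it had 30 reads, with reads in all 8 libraries at 1.85 to 7.87 CPM (median 5.09), and it had 20 reads in the 50 other libraries. Its values were read after the rule for testing had left it out, and it has no test.

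The 2 populations were first compared in controls, to ask which Wnt genes separate DPP4+ from DPP4- cells. Of the 24 tested members, 12 passed the threshold (edgeR quasi-likelihood test, adjusted p below 0.05 over all genes tested), 6 higher and 6 lower in ASC2. Over all genes tested 17.9% were called, 9.14% higher and 8.81% lower in ASC2. The median log2 fold change was -0.15 over the tested members and 0.00 over all genes tested. The ligands Wnt2, Wnt10b, Wnt11 and Wnt5a and the antagonists Sfrp4 and Sfrp2 were higher in ASC2, while the ligand Wnt4, the R-spondins Rspo1 and Rspo3, the receptors Fzd1 and Lrp5 and the antagonist Sfrp1 were lower. In the 5 ASC1 and 6 ASC2 control libraries whose sex reads matched the label 3 members were called, where 3.31% of all genes were, and in the libraries under 5 Tcf21 reads 4 members and 6.37% of all genes were. In bulk libraries, fewer cells of a type and less RNA per cell cannot be told apart.

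Wnt2 (ENSMUSG00000010797.7), a ligand that signals through β-catenin, ranged from 49.9 to 207.5 CPM (median 75.7) in the 16 control ASC2 libraries and from 4.27 to 49.5 CPM (median 15.6) in the 15 control ASC1 libraries. Every ASC2 library lay above every ASC1 library. The difference was 2.33 on the log2 scale (SE 0.24, edgeR adjusted p = 1.515e-11), or 5.01-fold, and it was 2.20 in libraries whose sex reads matched the label and 2.19 in libraries under 5 Tcf21 reads.

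Wnt10b (ENSMUSG00000022996.16), a ligand known to hold back adipogenesis, had at least 1 read in all 16 control ASC2 libraries, at 3.56 to 29.5 CPM (median 11.9). In control ASC1 it had a read in 4 of 15 libraries, with a highest value of 1.42 CPM and a median of 0. The groups did not overlap, with a log2 fold change of 4.64 (SE 0.52, edgeR adjusted p = 3.084e-10), and the call held in all 9 alternatives run.

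Wnt11, a ligand known mainly for signalling without β-catenin, was at 1.398 to 17.4 CPM (median 5.995) in control ASC2 and at 0 to 5.21 CPM (median 2.14) in control ASC1. The groups overlapped, and the log2 fold change was 1.86 (SE 0.48, edgeR adjusted p = 0.003545). The size was 1.86 in sex-matched libraries and 1.81 in libraries under 5 Tcf21 reads, but neither passed the threshold (adjusted p = 0.28 and 0.127). Wnt5a, a ligand of the same kind, was at 7.87 to 29.4 CPM (median 15.7) in control ASC2 and 0 to 19.3 CPM (median 10.4) in control ASC1. Its overlapping groups differed by 0.64 (SE 0.24, edgeR adjusted p = 0.04904), and the call was lost in 7 of 9 alternatives, with -0.03 in sex-matched libraries.

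Sfrp4 (ENSMUSG00000021319.8), a secreted antagonist, was at 53.2 to 674.7 CPM (median 181) in control ASC2 and 13.9 to 53.2 CPM (median 31.8) in control ASC1. The populations met at 53.2 CPM and were otherwise apart. The log2 fold change was 2.69 (SE 0.23, edgeR adjusted p = 1.096e-13), and it was 2.73 in sex-matched libraries and 2.78 in libraries under 5 Tcf21 reads, both past the threshold. Sfrp2 was at 32.3 to 205.9 CPM (median 62.8) in control ASC2 and 5.21 to 48.4 CPM (median 31.5) in control ASC1. The groups overlapped with a log2 fold change of 1.31 (SE 0.26, edgeR adjusted p = 0.0001807), and the call was lost in sex-matched libraries (adjusted p = 0.0974) and without libraries with Krt14 (adjusted p = 0.0504). The fit without Krt14 libraries left only Tcf21 libraries in control male ASC1.

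**Figure D2:**
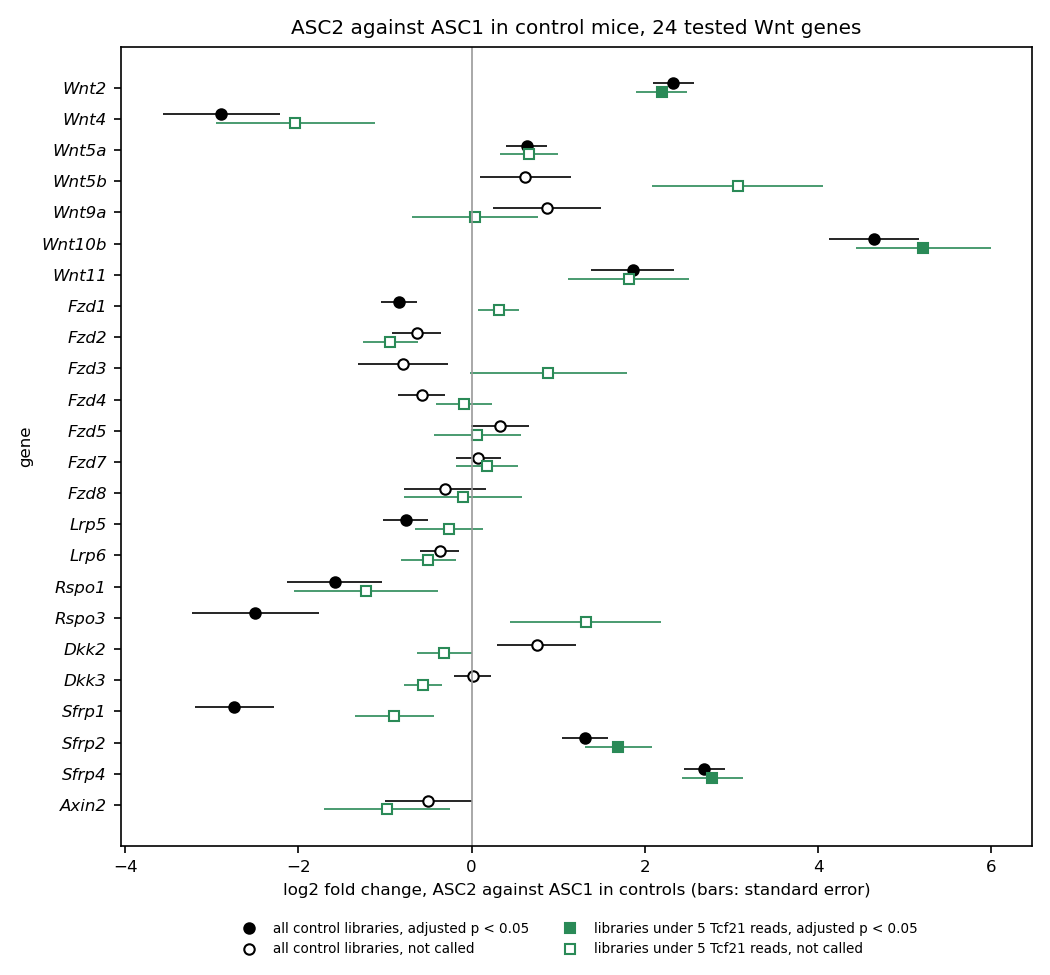
Log2 fold change of ASC2 against ASC1 in controls for the 24 tested members, for all control libraries (circles) and for those under 5 Tcf21 reads (squares), with bars for the standard error and filled symbols for an adjusted p below 0.05. Wnt2, Wnt10b, Sfrp4 and Sfrp2 are filled in both, and the squares of Rspo3 (1.32) and Fzd1 (0.31) lie on the other side of 0 from their circles.

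All 6 members that were lower in control ASC2 lost their call both in sex-matched libraries and in libraries under 5 Tcf21 reads. Sfrp1, a secreted antagonist, was at 2.23 to 57.01 CPM (median 15.5) in control ASC2 and at 4.01 to 402 CPM (median 144) in control ASC1, a log2 fold change of -2.74 (SE 0.46, edgeR adjusted p = 7.188e-06). The high values were those of Tcf21 libraries. In control ASC1 these held 100.5 to 402 CPM of Sfrp1 (n = 8), and of the 7 others 6 held 4.01 to 19.9 CPM while 1 control female library with 2 Tcf21 reads held 183.7 CPM. That library (A) had only 139825 reads, so its 2 Tcf21 reads stood at 13.1 CPM. The lowest level among Tcf21 libraries was 8.77 CPM, so library A is under the read limit by its depth. The difference was -0.89 in libraries under 5 Tcf21 reads (adjusted p = 0.288). It was 0.002 in sex-matched libraries, in which control male ASC1 held 100.5 to 211.4 CPM and control female ASC1 4.01 and 7.49 CPM. Sex-matched control ASC2 held a mean of 17.65 CPM in males and 51.12 CPM in females, so males and females went in opposite directions.

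Fzd1, a Frizzled receptor, was at 8.48 to 44.4 CPM (median 30.4) in control ASC2 and 10.02 to 101.6 CPM (median 44.8) in control ASC1, a log2 fold change of -0.84 (SE 0.21, edgeR adjusted p = 0.00236). Its level was 44.8 to 101.6 CPM in the 8 Tcf21 libraries of control ASC1 and 10.02 to 37.0 CPM in the other 7, without overlap, and the difference between ASC2 and ASC1 turned to 0.31 without Tcf21 libraries (adjusted p = 0.508). Wnt4, a ligand, was read in 12 of 15 control ASC1 libraries, at up to 24.9 CPM, and in 4 of 16 control ASC2 libraries, at up to 2.72 CPM (log2 fold change -2.89, SE 0.67, edgeR adjusted p = 0.00128). Without Tcf21 libraries the difference was -2.03 (adjusted p = 0.219), and in sex-matched libraries it was -0.31 (adjusted p = 0.916). The highest control ASC1 value without Tcf21 libraries, 13.1 CPM, was 2 reads in the shallow control female library A.

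The R-spondins, which amplify Wnt signals through LGR receptors, were low. Rspo1 had a median of 10.4 CPM in control ASC1 and 2.36 CPM in control ASC2, with ranges of 0 to 26.2 and 0 to 17.9 CPM that overlapped, and differed by -1.58 (SE 0.55, edgeR adjusted p = 0.03583). In sex-matched libraries this was 1.94 (adjusted p = 0.443), the opposite direction. There the mean was 16.23 CPM in male ASC1 and 8.238 CPM in male ASC2, but 0 CPM in female ASC1 and 5.36 CPM in female ASC2. Tcf21 libraries were the ASC1 of these males and the ASC2 of these females, so this value cannot decide on the population difference. The highest value, 26.2 CPM, was 4 reads in the shallow control female ASC1 library A. Rspo3 had 3 reads in all control ASC2 libraries and 25 in control ASC1, a ratio of 10.2 (95% interval 3.12 to 52.9, counting error only), and all 25 reads were in 7 of the 8 Tcf21 libraries. Its fitted log2 fold change was -2.50 (SE 0.73, edgeR adjusted p = 0.01144). Lrp5, a co-receptor, differed by -0.76 (SE 0.26, edgeR adjusted p = 0.03233), with 4.46 to 25.2 CPM (median 13.2) in control ASC2 and an overlapping 6.01 to 56.7 CPM (median 20.9) in control ASC1. Without Tcf21 libraries its difference was -0.26 (adjusted p = 0.783). Whether tissue of another depot had a part in these 6 differences was not tested.

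**Figure D3:**
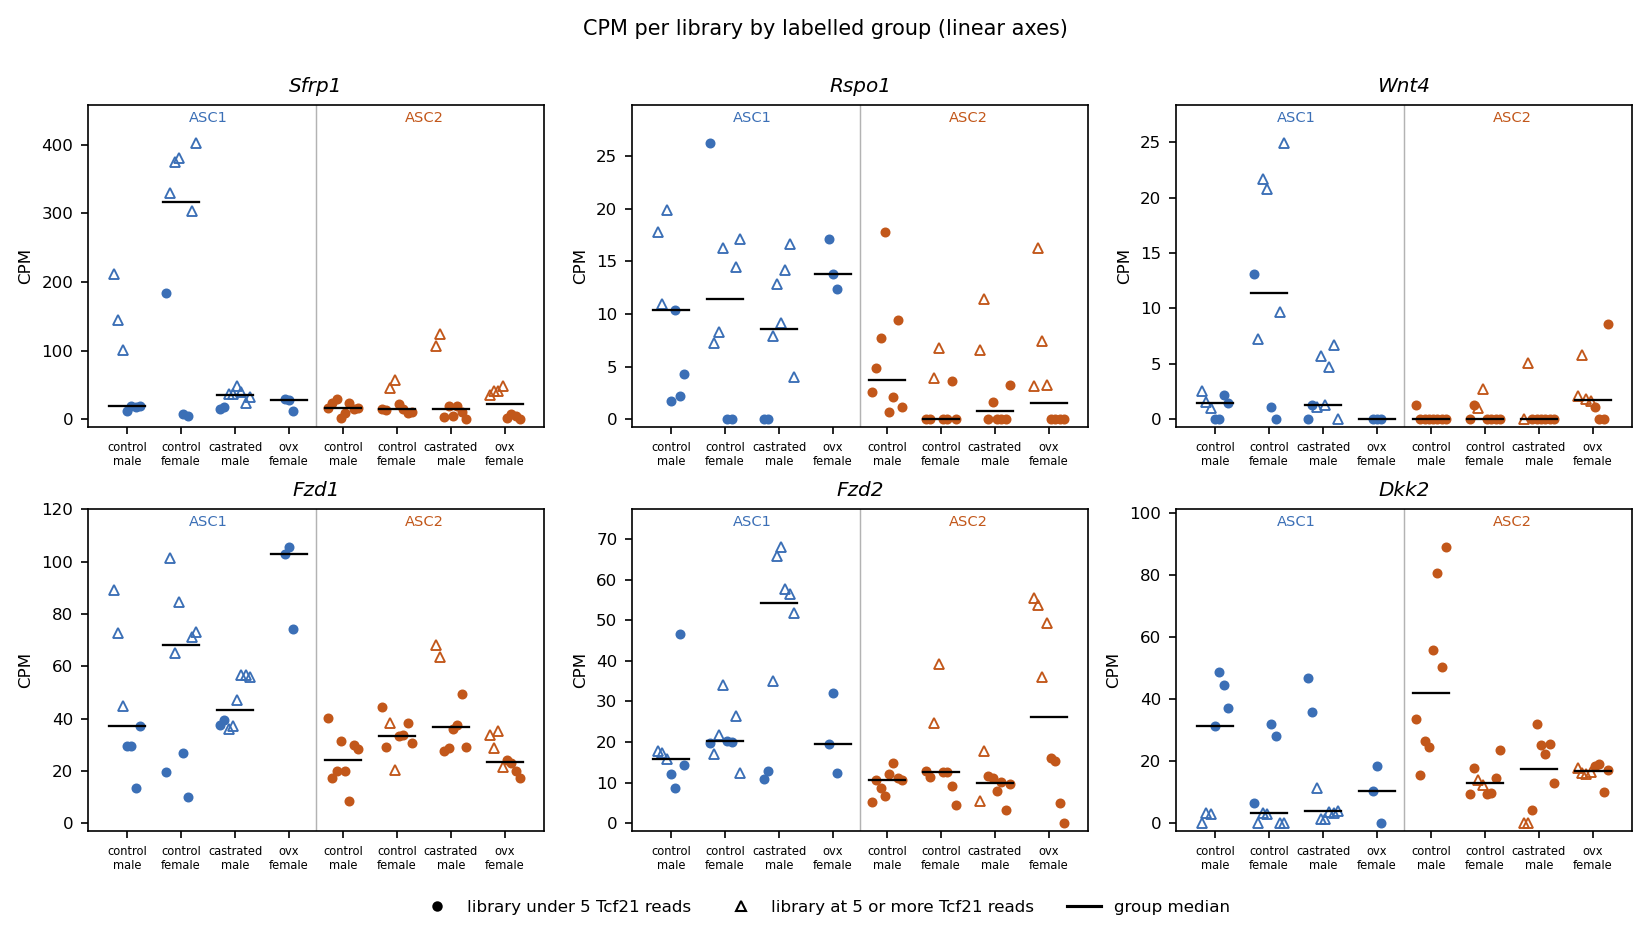
CPM per library for Sfrp1, Rspo1, Wnt4, Fzd1, Fzd2 and Dkk2 by labelled group (linear axes), with open triangles for libraries with 5 or more Tcf21 reads, circles for the others and lines for group medians. Triangles are high for Sfrp1 in control ASC1 (100.5 to 402 CPM, beside 1 circle at 183.7 CPM) and for Fzd2 in castrated ASC1 (35.0 to 68.0 CPM), and low for Dkk2 in the ASC1 groups.

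The same comparison within castrated males called 8 of 24 tested members, 5 higher and 3 lower in ASC2, against 9.09% of all genes tested. Because no castrated ASC1 library matched its sex label, no sex-matched value could be had here. By sex-chromosome reads the 8 castrated ASC1 libraries were female and the 8 castrated ASC2 libraries male. Population and sex can therefore not be told apart in this comparison. Wnt2 was at 52.2 to 155 CPM (median 66.3) in castrated ASC2 and 5.65 to 23.96 CPM (median 8.06) in castrated ASC1, without overlap (log2 fold change 3.11, SE 0.36, edgeR adjusted p = 8.093e-09). Sfrp4 was at 76.6 to 222 CPM (median 132) against 3.99 to 25.8 CPM (median 20.6), also without overlap (2.93, SE 0.34, edgeR adjusted p = 9.575e-09). Wnt10b had 47 reads in castrated ASC2 and 1 read in castrated ASC1, a ratio of 42.3 (95% interval 7.23 to 1705, counting error only), with an edgeR adjusted p of 6.057e-05. That 1 ASC1 read, in a shallow library, gave 3.99 CPM, which overlapped the ASC2 range of 1.096 to 21.8 CPM. These 3 calls held in all 8 alternatives run. Sfrp2 was at 16.1 to 113 CPM (median 58.2) against 7.85 to 33.3 CPM (median 14.4), and Wnt5a at 5.80 to 19.4 CPM (median 16.5) against 3.93 to 9.44 CPM (median 6.06). Both overlapped, with log2 fold changes of 1.97 (SE 0.41, edgeR adjusted p = 0.0005724) and 1.08 (SE 0.36, edgeR adjusted p = 0.04665), and neither passed without Tcf21 libraries (1.94, adjusted p = 0.317 and 1.19, adjusted p = 0.706), where 2 castrated ASC1 libraries were left and 0.53% of all genes were called. Their log2 fold changes stayed at 1.82 to 2.00 and 1.03 to 1.19 over all 8 alternatives, of which the call was lost in 1 for Sfrp2 and in 5 for Wnt5a.

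Among the 3 members lower in castrated ASC2, the antagonist Dkk3 was at 8.71 to 41.2 CPM (median 30.5) against 35.9 to 125.6 CPM (median 63.2) in castrated ASC1. The groups overlapped only at their edges (-1.40, SE 0.30, edgeR adjusted p = 0.001151), and the call held in all 8 alternatives run, at -1.79 without Tcf21 libraries. The receptor gene Fzd2 was at 3.20 to 17.8 CPM (median 9.98) against 10.8 to 68.0 CPM (median 54.3), with a log2 fold change of -2.19 (SE 0.40, edgeR adjusted p = 0.0001131). In castrated ASC1 the 6 Tcf21 libraries held 35.0 to 68.0 CPM and the 2 others 10.8 and 12.8 CPM, and without Tcf21 libraries the difference was -0.38 (adjusted p = 0.961). Axin2, the feedback target, was at 0 to 3.42 CPM (median 1.53) against 1.28 to 12.0 CPM (median 8.82), with a log2 fold change of -2.36 (SE 0.71, edgeR adjusted p = 0.02413) that was -1.06 without Tcf21 libraries (adjusted p = 0.948).

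**Figure D4:**
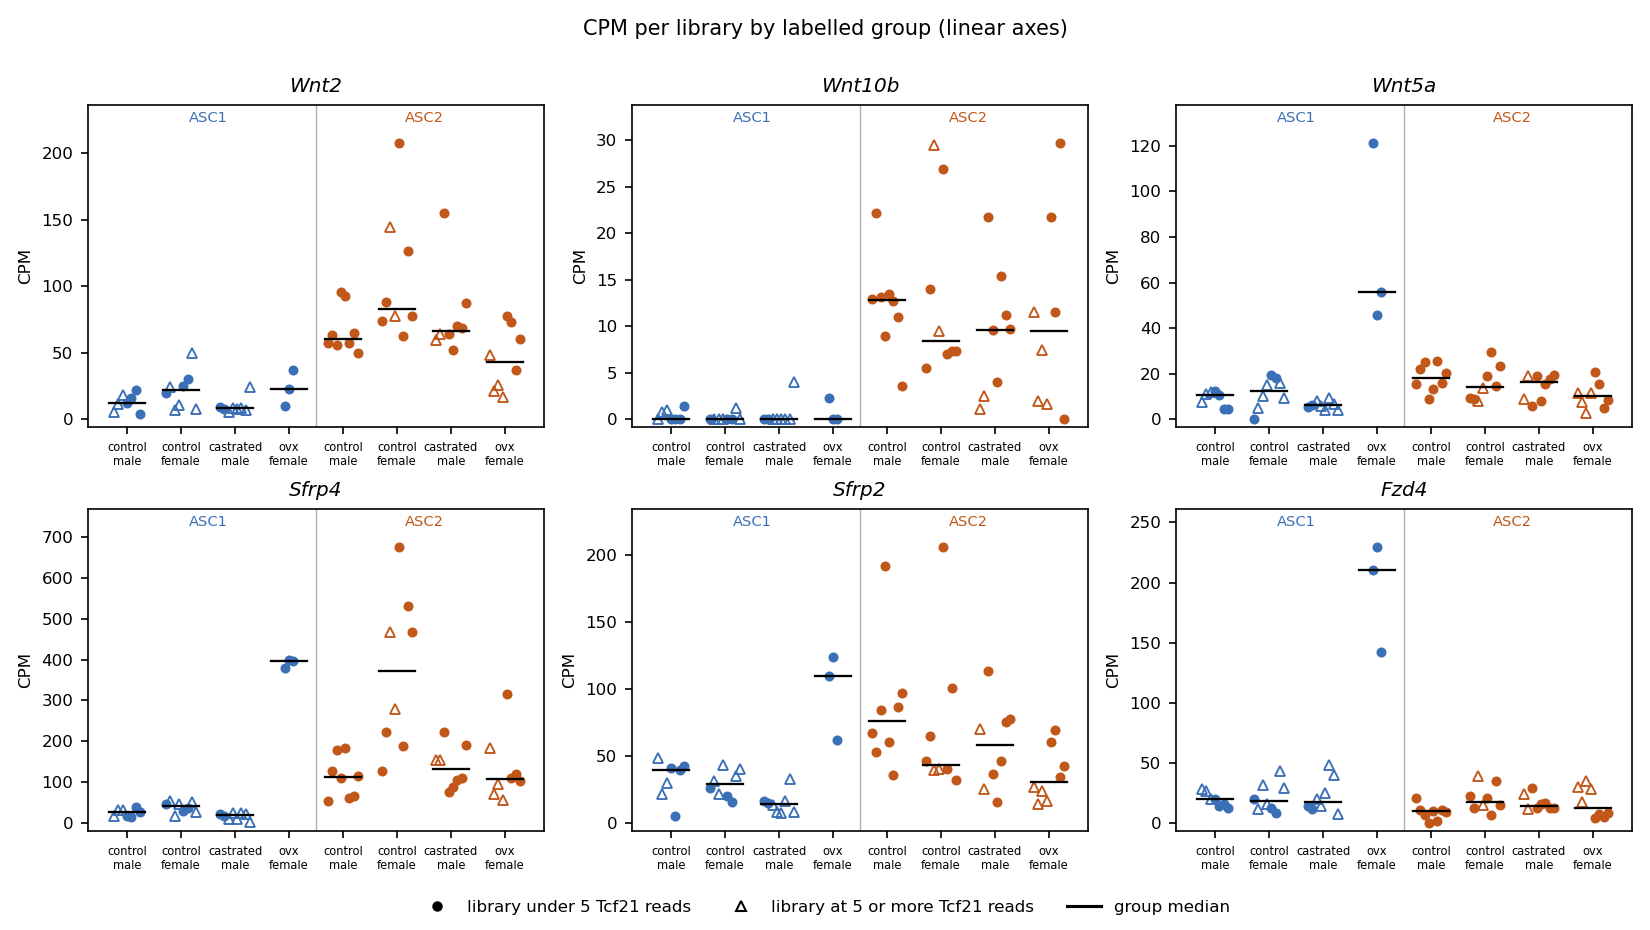
CPM per library for Wnt2, Wnt10b, Wnt5a, Sfrp4, Sfrp2 and Fzd4 by labelled group (linear axes), with circles for libraries under 5 Tcf21 reads, open triangles for the others and lines for group medians. Control and castrated ASC2 sit above ASC1 for Wnt2, Wnt10b and Sfrp4, and the 3 ovariectomized ASC1 libraries lie between 379 and 399 CPM for Sfrp4 and between 142 and 229 CPM for Fzd4.

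In ovariectomized females 8 members were called between ASC2 and ASC1, 2 higher and 6 lower in ASC2, but here 35.4% of all genes tested were called, and without 1 of the ASC1 libraries (L) 5 members and 20.2% of all genes were. The median log2 fold change was 0.31 over the tested members and 0.37 over all genes tested. The contrast rests on the 3 ovariectomized ASC1 libraries that stood apart in their fibroblast markers, and the part of these in the differences was not tested. Sfrp4 was at 379, 399 and 396 CPM in these 3 libraries (L, N and P) and at 56.0 to 316 CPM (median 107) in ovariectomized ASC2, without overlap and opposite in direction to controls (log2 fold change -1.54, SE 0.38, edgeR adjusted p = 0.0009335). Fzd4, a receptor for Wnts and norrin, was at 210, 229 and 142 CPM against 4.58 to 35.2 CPM (median 12.9), a difference of -3.35 (SE 0.43, edgeR adjusted p = 6.607e-09). In all 55 libraries of other groups Fzd4 stayed at or below 48.4 CPM. Wnt5a was at 121, 45.9 and 55.7 CPM against 2.78 to 20.6 CPM (median 10.04), a difference of -2.90 (SE 0.39, edgeR adjusted p = 3.065e-08), and Fzd1 at 103, 106 and 74.3 CPM against 17.1 to 35.2 CPM (median 23.6), a difference of -1.83 (SE 0.38, edgeR adjusted p = 0.0001242). These 4 genes did not overlap and kept their calls in every alternative run. How many of all genes did the same was not counted, so this is no result about the members.

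The other 4 calls in ovariectomized females were lost in 1 or more alternatives. Sfrp2 was at 110, 124 and 61.9 CPM in ASC1 against 14.4 to 69.2 CPM (median 31.0) in ASC2 (-1.56, SE 0.49, edgeR adjusted p = 0.009044), and it did not pass without library L (adjusted p = 0.0868) or without Tcf21 libraries (-0.93, adjusted p = 0.227). Lrp6, the second co-receptor, was at 36.6, 110 and 61.9 CPM against 7.69 to 44.5 CPM (median 24.5), with overlap (-1.25, SE 0.44, edgeR adjusted p = 0.02052), and was -0.74 without library N (adjusted p = 0.255). Fzd5, a Frizzled receptor, had no read in the 3 ASC1 libraries and 46 reads in ASC2, at least 4.46-fold higher against a limit of 3 reads over the group, and did not pass without library L (adjusted p = 0.0835). Wnt10b had 2 reads in ASC1, both in library L, and 56 in ASC2, a ratio of 8.15 (95% interval 2.15 to 69.0, counting error only), and its call (adjusted p = 0.03002) was lost in 10 of 13 alternatives, with log2 fold changes of 1.144 to 5.93 against 2.77 in all libraries. It was lost when any 1 of the 3 ASC1 libraries was left out (adjusted p = 0.074 without L, 0.0861 without N and 0.0698 without P).

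Castration was then examined within each population. In ASC2, 1 of 24 tested members was called against 6.96% of all genes tested, and it was Dkk3 (ENSMUSG00000030772.7), a divergent Dickkopf whose place in Wnt signalling is less settled than that of the other members. Dkk3 ranged from 67.0 to 151 CPM (median 107) in the 8 control male ASC2 libraries and from 8.71 to 41.2 CPM (median 30.5) in the 8 castrated ones. Every castrated library lay below every control library. The difference was -2.01 (SE 0.30, edgeR adjusted p = 8.173e-06), a 4.025-fold fall. It was -1.67 in sex-matched libraries (adjusted p = 0.0005457), -1.75 in libraries under 5 Tcf21 reads (adjusted p = 0.0001) and -1.41 where both rules held (adjusted p = 0.009862), so the call was kept with and without the libraries that went against their labels. Marker lists moved in the same comparison. The summed level of 4 fibroblast markers was 3024 to 6641 CPM in castrated and 7047 to 11580 CPM in control male ASC2, without overlap. The 4 ASC2 markers summed to 564.4 to 3144 CPM against 1730 to 5023 CPM, Cd34 was at 335.4 to 1055 CPM against 539.7 to 1372 CPM, and 5 macrophage markers summed to 132.6 to 649.9 CPM against 75.52 to 198.8 CPM. Endothelial markers, 4 in number, summed to 36.76 to 92.56 CPM against 10.6 to 38.94 CPM. The part of all these markers in the difference in Dkk3 was not tested.

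In ASC1 none of the 24 tested members was called after castration by edgeR, where 2.36% of all genes tested were. An unadjusted p below 0.05 was seen for 4 members, and DESeq2 called 2 (Fzd2 and Fzd7). The share over all genes was not counted for the unadjusted p or for DESeq2, so these counts are not results about the members. Dkk3 was at 35.9 to 125.6 CPM (median 63.2) in castrated and 25.8 to 118 CPM (median 73.3) in control male ASC1, a log2 difference of 0.12 (SE 0.29, edgeR adjusted p = 0.925). The castration effect on Dkk3 differed between the populations, by -2.12 (SE 0.42, edgeR adjusted p = 0.001391, interaction term), the only such member against 2.41% of all genes tested. Without Tcf21 libraries this difference was -2.02 and did not pass (adjusted p = 0.253), in a fit that called 0% of all genes. No castrated ASC1 library matched its sex label. All 8 read as female, while 3 of the 7 control male ASC1 libraries matched their label. Fzd2 was higher in castrated than control male ASC1 by 1.28 (SE 0.38, edgeR adjusted p = 0.05703), short of the threshold. Without Tcf21 libraries its difference was -0.71 (SE 0.59, adjusted p = 1.0), the opposite direction.

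**Figure D5:**
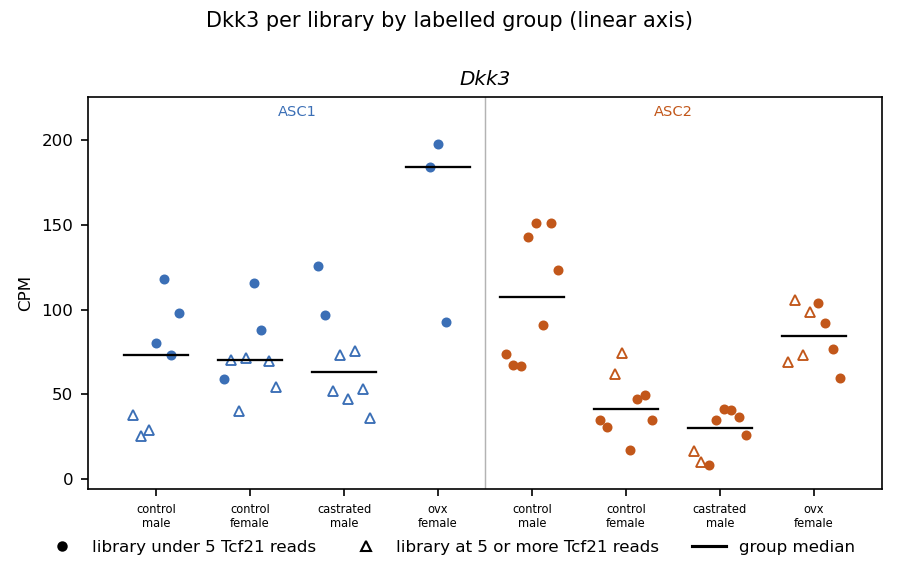
Dkk3 in CPM per library by labelled group (linear axis), with circles for libraries under 5 Tcf21 reads, open triangles for the others and lines for group medians. In ASC2 the 8 castrated libraries (8.71 to 41.2 CPM) lie below the 8 control male libraries (67.0 to 151 CPM), while in ASC1 the castrated and control ranges overlap.

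After ovariectomy, 2 members were called in ASC2, both lower, against 2.09% of all genes tested. Wnt2 was at 16.5 to 77.8 CPM (median 42.7) in ovariectomized and 62.9 to 207.5 CPM (median 82.8) in control female ASC2 (-1.32, SE 0.30, edgeR adjusted p = 0.007338), and Sfrp4 at 56.0 to 316 CPM (median 107) against 128 to 675 CPM (median 373; -1.46, SE 0.29, edgeR adjusted p = 0.001948). Both overlapped. In the ovariectomized ASC2 libraries the 4 with Tcf21 held 16.5 to 48.2 CPM of Wnt2 and the 4 without held 37.1 to 77.8 CPM. The 4 without Tcf21 were also the Krt14 libraries of this group. Neither call held in libraries under 5 Tcf21 reads (-0.76, adjusted p = 0.456 and -1.11, adjusted p = 0.254) or in sex-matched libraries, in which 2 control female ASC2 libraries were left and the log2 fold changes were -1.35 (adjusted p = 0.558) and -1.44 (adjusted p = 0.402). In the same comparison the 4 ASC2 markers summed to 508.7 to 2967 CPM in ovariectomized and 1280 to 5933 CPM in control female ASC2, and 8 mural cell markers to 1333 to 3653 CPM against 231.2 to 2530 CPM. Their part in the fall of Wnt2 and Sfrp4 was not tested. Dkk3 was at 60.0 to 106 CPM (median 84.5) in ovariectomized and 17.4 to 74.7 CPM (median 41.4) in control female ASC2, a difference of 0.96 that did not pass (SE 0.29, edgeR adjusted p = 0.06262).

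The castration effect in ASC2 was set against the ovariectomy effect in ASC2 by an interaction term, which called 2 members against 0.602% of all genes tested. For Dkk3 the castration effect was lower than the ovariectomy effect by 2.97 on the log2 scale (fitted value -2.97, SE 0.42, edgeR adjusted p = 2.046e-05), and for Sfrp4 it was higher by 1.74 (SE 0.41, edgeR adjusted p = 0.02457). In sex-matched libraries the values were -2.04 for Dkk3 (adjusted p = 0.526) and 1.69 for Sfrp4 (adjusted p = 0.69). Without Tcf21 libraries Dkk3 was kept at -3.01 (adjusted p = 4.077e-05) and Sfrp4 was not (1.35, adjusted p = 0.34).

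In ASC1, 8 members were called between ovariectomized and control females, 5 higher and 3 lower, against 34.8% of all genes tested, so the members' share of 33.3% was near the background. Without library L, 4 members and 18.7% of all genes were called. The same 3 libraries that stood apart make up the ovariectomized group. Sfrp4 was at 18.3 to 53.2 CPM (median 42.0) in control female ASC1 and so 3.35 lower on the log2 scale than in the 3 ovariectomized libraries (SE 0.39, edgeR adjusted p = 4.836e-10). Fzd4 was at 8.02 to 43.4 CPM (median 18.0) in the controls (log2 fold change 3.12, SE 0.42, edgeR adjusted p = 3.682e-08) and Wnt5a at 0 to 19.3 CPM (median 12.4; 2.61, SE 0.38, edgeR adjusted p = 2.605e-07). These 3 did not overlap and kept their calls in every alternative run, and how many of all genes did the same was not counted. Sfrp2 was also higher, without overlap, against 16.0 to 43.0 CPM (median 28.8) in the controls (1.76, SE 0.48, edgeR adjusted p = 0.003371), but not past the threshold without libraries with Krt14 (adjusted p = 0.143). That fit left only libraries A and H in control female ASC1. Dkk3 was at 184, 197 and 92.9 CPM against 40.0 to 116 CPM (median 70.1; 1.16, SE 0.37, edgeR adjusted p = 0.01188), with overlap, and did not pass in 5 of 11 alternatives, among them sex-matched libraries (0.65, adjusted p = 0.296) and leaving out library L (adjusted p = 0.117) or N (adjusted p = 0.0538).

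Of the members lower after ovariectomy in ASC1, Wnt4 had 0 reads against 57 in the controls, at least 6.39-fold lower, and Fzd5 had 0 reads against 24, at least 2.69-fold lower. For Wnt4 no bound could be had in sex-matched libraries, since the 2 control libraries left held 1 read, and neither gene passed there (adjusted p = 0.474 for Wnt4 and 0.0641 for Fzd5). Without Tcf21 libraries Fzd5 passed (adjusted p = 0.0402) and Wnt4 did not (adjusted p = 0.169). Sfrp1 was at 29.7, 27.5 and 12.4 CPM against 4.01 to 402 CPM (median 316.5), a log2 fold change of -3.29 (SE 1.03, edgeR adjusted p = 0.01039) that became 2.02 in sex-matched libraries (adjusted p = 0.29), in which the 2 control libraries left held 4.01 and 7.49 CPM. Without library L the adjusted p was 0.086 for Wnt4, 0.168 for Fzd5 and 0.0575 for Sfrp1.

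Control males and females were compared last. In ASC2, 2 members were called against 6.5% of all genes tested. Sfrp4 was lower in males, at 53.2 to 184 CPM (median 112) against 128 to 675 CPM (median 373) in females, with overlap (log2 fold change -1.71, SE 0.29, edgeR adjusted p = 9.802e-05). The call was kept in all 8 alternatives run, at -1.66 in sex-matched libraries (adjusted p = 0.03982, with 4 male and 2 female libraries). Dkk3 was higher in males, at 67.0 to 151 CPM (median 107) against 17.4 to 74.7 CPM (median 41.4), by 1.29 (SE 0.29, edgeR adjusted p = 0.002687). In sex-matched libraries, males at 67.0 to 143 CPM and the 2 females at 62.0 and 74.6 CPM overlapped and the difference was 0.35 (adjusted p = 0.734). These 2 females were Tcf21 libraries and none of these males was, for Sfrp4 as for Dkk3. Control female ASC2 held 62.0 to 74.7 CPM of Dkk3 with Tcf21 and 17.4 to 49.5 CPM without. In ASC1, 1 member was called against 0.289% of all genes tested. It was Wnt4, at 0 to 2.55 CPM (median 1.42) in males and 0 to 24.9 CPM (median 11.4) in females (-3.26, SE 0.75, edgeR adjusted p = 0.02558). In sex-matched libraries the difference was 1.03 (adjusted p = 0.849), and the call was lost without Tcf21 libraries too (-1.55, adjusted p = 0.962). The 3 matched males were all Tcf21 libraries and the 2 matched females were not.

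By edgeR, 18 of 24 tested members were called in at least 1 of the 9 comparisons between groups, where 53.6% of all genes tested were, and 6 in none: the receptors Fzd3, Fzd7 and Fzd8, the antagonist Dkk2 and the ligands Wnt5b and Wnt9a, with mean levels of 2.29 to 19.2 CPM. Dkk2, which blocks or weakly activates LRP6 depending on context, was at 15.4 to 89.02 CPM (median 42.1) in control male ASC2 and 9.26 to 23.5 CPM (median 13.0) in control female ASC2, a log2 difference of 1.74 (edgeR adjusted p = 0.06246) that passed without libraries with Tcf21 (1.68, adjusted p = 0.006501). The high male values were those of libraries against their sex label. In control male ASC2 these 4 held 50.4 to 89.02 CPM and the 4 matched ones 15.4 to 33.8 CPM. The 2 matched control female ASC2 libraries held 12.2 and 13.8 CPM. Members not called in control ASC2 against ASC1 had log2 fold changes of -0.79 to 0.87, and Axin2 was among them.

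Of a list of 59 other genes of the pathway, 46 were tested, and in controls 13 of these (28.3%, against 17.9% of all genes tested) were called between ASC2 and ASC1 by edgeR, 5 higher and 8 lower in ASC2. Gpc3, a cell-surface proteoglycan that binds Wnts, was higher by 2.18 (SE 0.29), Dact2 by 2.36 (SE 0.51) and the Wnt inhibitor Apcdd1 by 1.36 (SE 0.25). These 3 passed without Tcf21 libraries (2.68, 3.23 and 1.28) and in sex-matched libraries (2.25, 4.36 and 1.92). The co-receptor Ptk7 was lower (-1.45, SE 0.28), and it passed without Tcf21 libraries (-1.93) but not in sex-matched libraries (-0.62, adjusted p = 0.513). Of all 13 calls, 5 were kept without Tcf21 libraries and 3 in sex-matched libraries.

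In castrated males 3 of the 46 were higher and 7 lower in ASC2 (21.7%, against 9.09% of all genes tested), and without Tcf21 libraries none of these 10 was kept. In that fit 0.53% of all genes were called. Frzb, the secreted frizzled-related protein also called Sfrp3, differed by -4.49 (SE 0.92) with all libraries and by -0.32 without Tcf21 libraries. Castration called 5 of the 46 in ASC2 (10.9%, against 6.96% of all genes tested), all lower. They were the kinase gene Gsk3b (-2.24, SE 0.45), the ubiquitin ligase gene Znrf3 (-1.74, SE 0.45), Tspan12 (-1.73, SE 0.45), the transcription factor gene Tcf7l2 (-1.63, SE 0.39) and Bcl9 (-1.03, SE 0.30). Of these, 4 were kept in sex-matched libraries, without Bcl9, and 3 without Tcf21 libraries, namely Gsk3b (-2.89), Tcf7l2 (-2.03) and Znrf3 (-1.89). The marker lists given beside Dkk3 moved in this comparison too.

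In ASC1 castration called 2 of the 46 (4.35%, against 2.36% of all genes tested), both higher, namely Frzb (4.13, SE 0.94) and the glypican gene Gpc4 (1.11, SE 0.29). Neither was kept without Tcf21 libraries, where Frzb was at -0.19. In that fit 0% of all genes were called, so the lost calls say nothing of these genes. Ovariectomy called 3 of the 46 in ASC2 (6.52%, against 2.09% of all genes tested), with Ptk7 higher by 1.51 (SE 0.39) and Gpc3 (-1.31, SE 0.36) and Apcdd1 (-1.21, SE 0.34) lower, and none was kept without Tcf21 libraries or in sex-matched libraries. In those fits 0.802% and 0.0321% of all genes were called.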

How the data were processed

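Smart-seq3 libraries of sorted ASC1 and ASC2 were sequenced by the authors, and reads were quantified with Salmon 1.9.0 against a Gencode vM32 transcriptome, while a STAR 2.7.10a alignment to GRCm39 served quality control, per the methods. The deposited table holds estimated counts per gene, with reads with and without molecular identifiers added, and 15.0% of its values were not whole. Counts were rounded. Symbols came from a GRCm38 Gencode annotation, which matched 52029 of 56953 gene IDs and also gave exon lengths. Total counts were 106566 to 1421547 per library, so members near 1 CPM rest on single reads, and intervals (95%) and limits of detection (3 reads) cover counting error only. No column lacked a sample, and no 2 libraries of a group agreed within sampling noise.

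The 12464 genes that reached 5 reads in over 3 libraries were fitted with edgeR 4.0.16 (R 4.3.3, TMM scaling, quasi-likelihood F test, two-sided), with 1 coefficient for each of the 8 groups and all 58 libraries sharing the dispersion. P-values were adjusted over all genes tested (Benjamini-Hochberg, threshold 0.05). The study counts libraries of a group as biological replicates, and the labels do not tie a library to a mouse. Scripts were tested on simulated data. Members past the threshold in at least 1 of 9 comparisons between groups are described with values, other tested members by counts and ranges, and untested ones by name and reads. Dkk2 was given values after these were seen.

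Members and gene lists were chosen with earlier results of these data known. A library matched its sex label where 4 Y-linked genes summed to at least 15 CPM with Xist below 15 CPM (male), or the reverse (female). Alternatives were DESeq2 1.42.0, RLE size factors, no filter, only the groups compared, libraries matching their sex label, libraries under 5 Tcf21 reads, replicate blocks, and leaving out each ovariectomized ASC1 library. Leaving out libraries with Krt14 at 15 CPM or more, and applying the sex and Tcf21 rules together, were added after seeing the data. Promoters came from RefSeq on GRCm38.p6, another build than the counts, and were matched by symbol. Figures were drawn with Python 3.11.15.

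Replicate letters are shared between ASC1 and ASC2, but the labels do not say that a letter marks a mouse. Correlations of same-letter deviations from the group means ran from -0.33 to 0.49 and were not all above 0.1, so the letters were not used as pairs.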

Additional observations from a re-analysis of the deposited data

Results flagged for a closer look

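Of 126 groups of 4 to 10 libraries checked for members that were called, 14 had a library far from the others of its group. A chance rate of about 1 in 20 does not hold where 1 read stands against 0, so the 14 are not read as an excess. Many rest on single reads. In castrated ASC1, Axin2 was at 1.28 CPM in library J against 5.38 to 12.0 CPM in the others, Lrp5 at 5.38 CPM in library I against 15.8 to 28.8 CPM, Wnt2 at 24 CPM in library P (6 reads) against 5.65 to 8.97 CPM, and Wnt10b at 3.99 CPM in library P (1 read) against 0. In castrated ASC2, Lrp6 was at 0 CPM in library K against 16.2 to 49.5 CPM, Wnt2 at 155 CPM in library K against 52.2 to 87.3 CPM, Rspo3 at 14 CPM in library J (11 reads) against 0 to 2.19 CPM, and Wnt4 at 5.10 CPM in library J (4 reads) against 0. Library J of castrated ASC2 is one of those with Tcf21 reads.

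In control male ASC1, Fzd2 was at 46.6 CPM in library G against 8.68 to 17.8 CPM, and Sfrp2 at 5.21 CPM in library F (3 reads) against 21.9 to 48.4 CPM. In control male ASC2, Rspo3 was at 0.706 CPM in library E and Wnt4 at 1.30 CPM in library A, 1 read each against 0 elsewhere. In control female ASC1, Wnt5a was at 0 CPM in library A against 4.84 to 19.3 CPM, and Wnt10b at 1.21 CPM in library G (1 read) against 0.

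In all, 3 effects differed between groups by an interaction term (edgeR). The castration effect on Dkk3 in ASC2 minus that in ASC1 was -2.12 on the log2 scale, and minus the ovariectomy effect in ASC2 it was -2.97. For Sfrp4 the castration effect minus the ovariectomy effect in ASC2 was 1.74.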

How the results depend on the processing

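Of the 45 calls of members over 11 comparisons, 16 were kept in every alternative run and 29 were lost in at least 1. The share of kept calls over all genes was not counted. In ASC2 against ASC1 the count of called members went from 12 to 3 (sex-matched) and 4 (without Tcf21 libraries) in controls, from 8 to 4 (without Tcf21) in castrated males, and from 8 to 5 in ovariectomized females with a block by presumed mouse. Over all genes the shares called went from 17.9% to 3.31% and 6.37%, from 9.09% to 0.53%, and from 35.4% to 23.7%. Leaving out 1 ovariectomized ASC1 library at a time gave 5 to 9 there and 4 to 8 (from 8) for ovariectomy in ASC1. Without library L the shares over all genes fell from 35.4% to 20.2% and from 34.8% to 18.7%. Castration in ASC2 went from 1 to 2 (no filter, and both library rules) and 3 (without Krt14 libraries), and in ASC1 from 0 to 1 (RLE, no filter, only the groups compared, without Krt14 libraries) and 2 (DESeq2). In ASC2 the share over all genes went from 6.96% to 4.46% (both rules) and 7.04% (without Krt14). In ASC1 it went from 2.36% to 3.39% (without Krt14). Ovariectomy in ASC2 went from 2 to 0 (sex-matched), 1 (without Tcf21) and 4 (without Krt14), and the share over all genes from 2.09% to 0.0321%, 0.802% and 3.95%. Control males against females went from 2 to 4 (no filter, without Krt14) and 1 (sex-matched) in ASC2, and from 1 to 2 (no filter) and 0 (only the groups compared, without Tcf21, without Krt14, block by letter) in ASC1. In ASC2 the share over all genes went from 6.5% to 6.76% (without Krt14) and 2.74% (sex-matched). In ASC1 it went from 0.289% to 0.0401% (without Tcf21) and 0.00802% (without Krt14). The interaction over populations went from 1 to 2 (no filter), 0 (without Tcf21) and 4 (without Krt14), and castration minus ovariectomy from 2 to 1 (only the groups compared, without Tcf21) and 0 (sex-matched). For the first the share over all genes went from 2.41% to 0% (without Tcf21) and 4.29% (without Krt14). For the second it went from 0.602% to 0.682% (without Tcf21) and 0% (sex-matched). For the other settings no share was counted, so those counts are not results about the members. The cause of these moves was not tested. Fewer libraries entered the fits that left some out.

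The direction turned in controls for Rspo3 (1.32) and Fzd1 (0.313) without Tcf21 libraries and for Wnt5a (-0.028), Rspo1 (1.94) and Sfrp1 (0.002) in sex-matched libraries. In those sex-matched controls, population and Tcf21 reads cannot be told apart within either sex. It also turned for Sfrp1 after ovariectomy in ASC1 (2.02 sex-matched, 1.97 with both rules) and for Wnt4 between the sexes in ASC1 (1.03 sex-matched). No sex-matched fit could be had for castrated ASC1, where no library qualified.

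With the replicate letter as a block, 11, 7 and 7 members were called between ASC2 and ASC1 in controls, castrated males and ovariectomized females, and 3 and 0 between the sexes in ASC2 and ASC1. The share over all genes was not counted for this block, so these counts are not results about the members. Whether the letters pair the libraries is not said by the labels. The number of ASC1 libraries that correlated best with their own letter was 3 of 8 in control females, 3 of 7 in control males, 1 of 8 in castrated males and 1 of 3 in ovariectomized females. Depth limits the low members, of which Wnt4, Rspo3 and Wnt10b in ASC1 rest on few reads.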
